A study of Mus musculus with 4 samples.

Results

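The serine, one-carbon and ATF4 target genes described here are 10 genes, *Mthfd2*, *Phgdh*, *Psat1*, *Psph*, *Shmt2*, *Asns*, *Trib3*, *Ddit3*, *Atf4* and *Chac1*, out of 21462 genes listed for lung smooth muscle cells of *Tet3* mutant and control mice. They were chosen by name, as rows of the table of normalized counts, after their own values in mutant and control libraries had been seen, so the difference between the genotypes is given for them as a description and without a test. All 10 had a row, and all 10 passed the minimum mean of 10 normalized counts that left 16659 genes for fitting.

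The animals were C57BL/6 mice. In the mutants, floxed *Tet3* (*Tet3* fl/fl) was deleted by a tamoxifen-inducible Cre recombinase driven by the α-smooth muscle actin promoter (α-SMA-ERT2Cre), and a ROSA26 tdTomato reporter marked the cells in which Cre had acted. The controls, labelled WT, had no floxed *Tet3* but carried Cre and/or the reporter, and adult mice of both groups received tamoxifen. Lungs were perfused and digested with collagenase and elastase, CD45+ and Ter-119+ blood cells were removed with beads, and living tdTomato+ cells were sorted. Each group had 2 libraries. The study describes them as independent animals, and no age, sex, batch or interval after tamoxifen is given in the labels. The α-SMA promoter is active in other contractile cells such as pericytes and myofibroblasts as well as in smooth muscle.

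Phgdh, Psat1 and Psph are the consecutive enzymes that make serine from a glycolytic intermediate. Serine hydroxymethyltransferase 2 (Shmt2) passes a carbon from serine to folate in mitochondria, and Mthfd2 oxidizes that carbon on its way to formate, which the cytosol uses for purines and thymidylate. Atf4 is the transcription factor made when the kinases of the integrated stress response phosphorylate eIF2, a step that acts mainly on translation of the *Atf4* messenger; genes of all these enzymes, asparagine synthetase (*Asns*), and the stress genes *Ddit3*, *Trib3* and *Chac1* are known ATF4 targets.

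ATF4 bound to a C/EBP partner recognizes an 8-base composite element, written TGATGNAA, and the promoter windows of the 10 genes were searched for these letters on both strands. The windows were RefSeq sequences on mouse build GRCm38.p6, running from 250 bases before to 50 bases after each transcription start. All 10 genes matched an entry, and *Psat1* had 2 starts, which gave 11 windows. The element was present in 3 of the 11 windows (27.3%), those of *Asns*, *Chac1* and *Trib3*, against 1304 of 32851 windows of all genes (3.97%) and 16 of 116 windows of the other pathway genes listed further on (13.8%). These 3 sequences are shown because only these windows among the 11 hold the element. The cyclic AMP response element TGACGTCA, a related site that cannot be read from the same 8 bases, was in 0 of the 11 windows and in 1.79% of all windows. In the sequences, read in the direction of transcription, capitals mark the element. By the RefSeq starts, it begins 23 bases before the start of *Asns* (chr6:7693210-7693459, minus strand), 193 bases before the start of *Chac1*, where it is on the opposite strand (chr2:119350992-119351241, plus strand), and at base 15 of the *Trib3* transcript, again on the opposite strand (chr2:152344028-152344057, minus strand). The gene coordinates given further on, from GENCODE M21, have other starts. By them the *Asns* element (7693225 to 7693232) lies inside the gene, which starts at 7693254. The *Trib3* element (152344039 to 152344046) then lies before the gene, which starts at 152344032.
Asns: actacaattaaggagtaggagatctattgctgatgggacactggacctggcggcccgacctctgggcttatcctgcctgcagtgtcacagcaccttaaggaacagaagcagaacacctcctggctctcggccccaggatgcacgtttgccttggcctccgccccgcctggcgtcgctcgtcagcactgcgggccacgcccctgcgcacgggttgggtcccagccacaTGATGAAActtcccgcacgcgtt
Chac1: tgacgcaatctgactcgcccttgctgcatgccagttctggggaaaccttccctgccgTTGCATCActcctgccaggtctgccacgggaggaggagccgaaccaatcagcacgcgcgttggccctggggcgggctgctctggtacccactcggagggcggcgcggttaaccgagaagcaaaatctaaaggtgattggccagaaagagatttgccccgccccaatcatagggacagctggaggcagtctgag
Trib3: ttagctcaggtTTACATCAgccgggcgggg
A match of letters does not show that a factor binds there, and a window without it says only that these letters are not in those 300 bases.

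The 4 libraries had totals of 6805272 to 7164573 normalized counts. *Tet3* itself had 1847 and 1926 normalized counts in control 1 and 2 and 1534 and 1444 in mutant 1 and 2, a log2 fold change of -0.34 (SE 0.10, limma adjusted p = 0.681), counted over the whole gene with its undeleted exons. Control 2 stood apart from the other 3 libraries: it was more than 2-fold away from all of them in 388 of 10888 genes with a mean over 100, against 10 to 73 genes for each other library, and it alone had *Ddx3y* of the Y chromosome (774 normalized counts) and almost no *Xist* (2, against 5214 to 6781). By these 2 genes control 2 came from a male and the other 3 libraries from females. Sex was thus not balanced between the genotypes, and its part cannot be told apart from other traits of control 2. Results that rest on control 2 are therefore also given without it. The sorted cells expressed all 8 smooth muscle markers (summed 4567 and 5848 in controls, 6894 and 6519 in mutants), but markers of some other lung cells had larger sums, with 6 endothelial markers at 12256 to 13519 and 6 alveolar type 2 markers at 7500 to 16172 over the libraries. Other lists had smaller sums, such as T cell markers at 228 to 877. The lists differ in size, so these sums do not compare amounts of cells. In such bulk libraries, fewer cells of a type and less RNA per cell cannot be told apart.

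Most of the 10 genes were higher in the *Tet3* mutant libraries, by modest amounts. *Mthfd2* was 1.73-fold higher in the mutants, *Chac1* 1.63-fold and *Psat1* 1.6-fold, and all 6 enzyme genes of serine, folate and asparagine metabolism (*Mthfd2*, *Phgdh*, *Psat1*, *Psph*, *Shmt2* and *Asns*) had their highest value in mutant 2. *Atf4* itself and *Trib3* were not higher in the mutant mean, although *Trib3* turned to a log2 fold change of 0.01 with equal library totals. Both mutant libraries were above both controls for 6 of the 10 genes, where 19.6% of all 16659 genes had this order and 19.5% had the opposite one, which none of the 10 had. In 8 of the 10 the log2 fold change was above 0, as it was in 49% of all genes. The median log2 fold change was 0.41 over the 10 genes and -0.0069 over all genes. All log2 fold changes refer to log2(normalized count + 1), which slightly understates differences of the lowest genes.

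**Figure D1:**
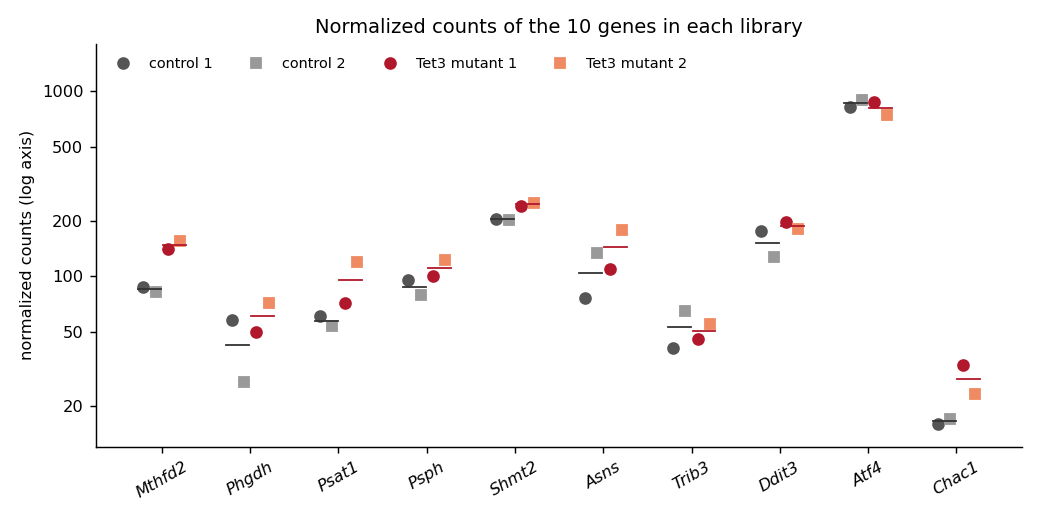
Normalized counts (log axis) of each of the 10 genes in the 4 libraries, with circles for replicate 1, squares for replicate 2, and lines at the group means (n = 2). The mutant points lie above both control points for *Mthfd2*, *Psat1*, *Psph*, *Shmt2*, *Ddit3* and *Chac1*, and the groups overlap for *Phgdh*, *Asns*, *Trib3* and *Atf4*.

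Of the mitochondrial folate enzymes, *Mthfd2* (ENSMUSG00000005667, chromosome 6, 83305691 to 83325908 on mm10, minus strand) was at 88 and 82 normalized counts in the control libraries, against 140 and 155 in the mutant ones. The controls lay close together, both mutants were well above them, and mutant 2 was the highest. The means were 85 ± 4.24 and 147.5 ± 10.6 (SD, n = 2), a log2 fold change of 0.79 (SE 0.21). *Shmt2* (chromosome 10, 127517123 to 127522444) was at 205 and 201 normalized counts in the control libraries, against 240 and 250 in the mutant ones. Here, too, each pair was tight and the groups did not overlap, but the step was smaller, with a log2 fold change of 0.27 (SE 0.15) between means of 203 ± 2.83 and 245 ± 7.07 (SD, n = 2). It shares 32 exonic bases with *Ndufa4l2* on the opposite strand. These 2 genes depended least on any single library: leaving out each library in turn kept *Mthfd2* between 0.71 and 0.86 and *Shmt2* between 0.24 and 0.30 on the log2 scale.

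*Mthfd2* lies on the same chromosome as the deleted gene, with 36464 bases between it and *Tet3*. Both tested genes between them differed less than *Mthfd2* did, which was itself chosen on this contrast. *Mob1a*, a kinase adaptor of the Hippo pathway, was at 1328 and 1224 normalized counts in the control libraries, against 1366 and 1417 in the mutant ones, a log2 fold change of 0.13 (limma adjusted p = 0.745). *Bola3*, which helps to assemble mitochondrial iron-sulfur clusters, measured 126 and 124 there, against 109 and 142 in mutant libraries, a log2 fold change of -0.0066 (limma adjusted p = 0.995). Past the other end of *Tet3* lies the smooth muscle marker *Actg2* (83512905 to 83536265). It was at 101 and 158 normalized counts in the control libraries, against 237 and 311 in the mutant ones. Its log2 fold change was 1.10 (SE 0.28, limma adjusted p = 0.681), and other genes on that side are not given here. Whether the position of *Mthfd2* has a part in its difference was not tested.

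The serine synthesis genes were less even. *Psat1*, the transaminase of the pathway (chromosome 19, 15904678 to 15947337), was at 61 and 54 normalized counts in the control libraries, against 72 and 119 in the mutant ones. Both mutants were above both controls, but most of the difference came from mutant 2: the log2 fold change of 0.68 (SE 0.33) between 57.5 ± 4.95 and 95.5 ± 33.2 (SD, n = 2) became 0.32 without that library and 1.04 without mutant 1. *Psph*, the phosphatase of the last step (chromosome 5, 129765558 to 129787449), was at 96 and 79 normalized counts in the control libraries, against 100 and 123 in the mutant ones. Mutant 1 was barely above control 1, so the groups were only just apart, at 87.5 ± 12 and 111.5 ± 16.3 (SD, n = 2) and a log2 fold change of 0.35 (SE 0.24), which was 0.21 without control 2 and 0.20 without mutant 2. *Psph* also shares 452 exonic bases with *Cct6a* on the opposite strand, and the sources used here do not say whether reads were counted by strand.

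*Phgdh*, the first and committed enzyme (chromosome 3, 98313170 to 98339990), was at 58 and 27 normalized counts in the control libraries, against 50 and 72 in the mutant ones. The groups overlapped, since control 1 was above mutant 1 and only control 2 was low. Its log2 fold change of 0.59 (SE 0.46) between 42.5 ± 21.9 and 61 ± 15.6 (SD, n = 2) rested on control 2 and fell to 0.048 without it, and it was 1.12 without control 1 and 0.33 without mutant 2. A processed pseudogene on chromosome 7, *Phgdh-ps1*, was likewise lowest in control 2, with 30 and 7 normalized counts in the control libraries, against 26 and 17 in the mutant ones. Reads that fitted both copies equally were left out by the authors, so they are in neither count.

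*Asns*, which makes asparagine from aspartate and glutamine (chromosome 6, 7675169 to 7693254), was at 76 and 133 normalized counts in the control libraries, against 110 and 178 in the mutant ones. Both second replicates were above both first replicates, and control 2 was above mutant 1. The spread within each genotype was wider than the step between the genotype means. The means were 104.5 ± 40.3 and 144 ± 48.1 (SD, n = 2), and the log2 fold change of 0.47 (SE 0.38) was 0.073 without control 1, 0.87 without control 2, 0.82 without mutant 1 and 0.13 without mutant 2.

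Among the regulators, *Atf4* (chromosome 15, 80255184 to 80257541) was at 822 and 898 normalized counts in the control libraries, against 874 and 741 in the mutant ones. The groups overlapped and mutant 2, the library with the highest enzyme genes, had the lowest *Atf4* of the 4. Its means of 860 ± 53.7 and 807.5 ± 94 (SD, n = 2) gave a log2 fold change of -0.094 (SE 0.13), which turned to 0.025 without mutant 2, and the protein, which depends on translation, was not measured in these libraries. *Ddit3*, which encodes the stress factor CHOP (chromosome 10, 127290774 to 127296288), was at 175 and 127 normalized counts in the control libraries, against 196 and 180 in the mutant ones. Mutant 2 exceeded control 1 by only 5 normalized counts, and control 2 was the low library, so the log2 fold change of 0.33 (SE 0.22) between 151 ± 33.9 and 188 ± 11.3 (SD, n = 2) fell to 0.10 without control 2 and was 0.56 without control 1. GENCODE M21 holds another *Ddit3* gene model that shares 105 exonic bases with it on the same strand. The authors left out reads fitting several genes, so reads there may be missing from its count. *Ddit3* also shares 68 exonic bases with *Mars1* on the opposite strand, a tRNA synthetase gene at 537 and 514 normalized counts in the control libraries, against 616 and 580 in the mutant ones.

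*Trib3*, a pseudokinase that restrains ATF4 and CHOP activity (chromosome 2, 152337422 to 152344032), was at 41 and 65 normalized counts in the control libraries, against 46 and 55 in the mutant ones. Both mutants lay between the controls, with means of 53 ± 17 and 50.5 ± 6.36 (SD, n = 2). Its log2 fold change of -0.037 (SE 0.35) was -0.36 without control 1 and 0.29 without control 2. *Chac1*, which breaks down glutathione (chromosome 2, 119351229 to 119354381), was at 16 and 17 normalized counts in the control libraries, against 33 and 23 in the mutant ones. It was the lowest of the 10 genes, and both mutants were above the controls, with mutant 1 the higher of them. Its log2 fold change was 0.71 (SE 0.40), with means of 16.5 ± 0.707 and 28 ± 7.07 (SD, n = 2). At this depth a step of a few reads weighs heavily, and the value was 0.46 without mutant 1 and 0.96 without mutant 2. The 3 genes with the composite element thus had log2 fold changes of 0.47 (*Asns*), 0.71 (*Chac1*) and -0.037 (*Trib3*).

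**Figure D2:**
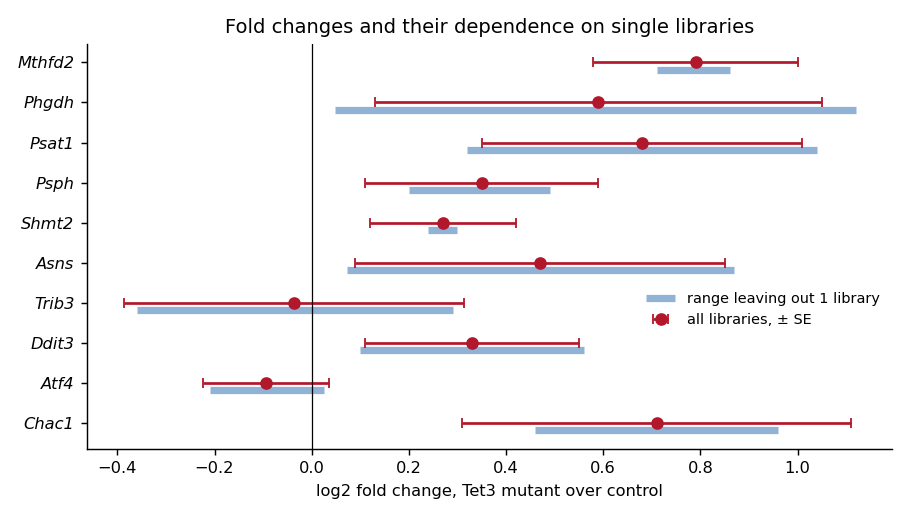
Log2 fold change of each gene, *Tet3* mutant over control: red points with bars give the value and its standard error over all 4 libraries, and blue bars the range of values when 1 library was left out. *Mthfd2* and *Shmt2* have the shortest ranges, *Phgdh* spans 0.048 to 1.12, and the ranges of *Trib3* and *Atf4* cross 0.

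Grouped by role, the genes varied within each group. For the 6 enzyme genes of serine, folate and asparagine the median was 0.53 on the log2 scale, and the genes themselves lay between 0.27 (*Shmt2*) and 0.79 (*Mthfd2*). For *Atf4*, *Ddit3*, *Trib3* and *Chac1* it was 0.15, over 4 values that went both ways, from -0.094 (*Atf4*) to 0.71 (*Chac1*). All 6 enzyme genes peaked in mutant 2, which was the highest library for 22.4% of all genes. The 10 genes were chosen on this contrast, which favours a peak in a mutant library, so nothing is read from that comparison. *Ddit3* and *Chac1* peaked in mutant 1, and *Trib3* and *Atf4* in control 2. Relative to the control mean of each gene, the median log2 ratio of the 10 genes was 0.032 in control 1, -0.032 in control 2, 0.28 in mutant 1 and 0.47 in mutant 2. The count of genes with every mutant above every control, taken again with a library left out after the data had been seen, can only stay at 6 or rise, since fewer values have to be in order. It was 7 without control 1 (39.9% of all genes) and 8 without control 2 (32.4%), 8 without mutant 1 (32.2%) and 6 without mutant 2 (30.8%). Without control 2 the median log2 fold change of the 10 genes was 0.27 in place of 0.41, and without control 1 it was 0.52.

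Across the transcriptome no gene passed an adjusted p of 0.05 in limma (0% of 16659), and 6.68% of genes had an unadjusted p under 0.05, among them 1 of the 10, *Mthfd2*. Because the genes were chosen on this contrast, nothing is read from that count.

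Per kilobase of exon, the 10 genes spanned a wide range in control cells. *Atf4* was by far the most abundant, at 365 ± 22.8 normalized counts per kb (SD, n = 2), above *Ddit3* at 88.1 ± 19.8 and *Shmt2* at 65.3 ± 0.91. Then came *Asns* (38.2 ± 14.7), *Trib3* (24.9 ± 7.99) and *Mthfd2* (24.4 ± 1.22), whose neighbours in this order overlapped. *Psph* (20.2 ± 2.78), *Phgdh* (17.1 ± 8.82) and *Psat1* (13.5 ± 1.16) followed, *Psph* below *Mthfd2* in both controls and the 3 serine synthesis genes overlapping in order. *Chac1* was the lowest, at 10.1 ± 0.432. In mutants *Mthfd2* reached 42.3 ± 3.04 normalized counts per kb, *Psat1* 22.4 ± 7.81 and *Atf4* 342 ± 39.9.

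**Figure D3:**
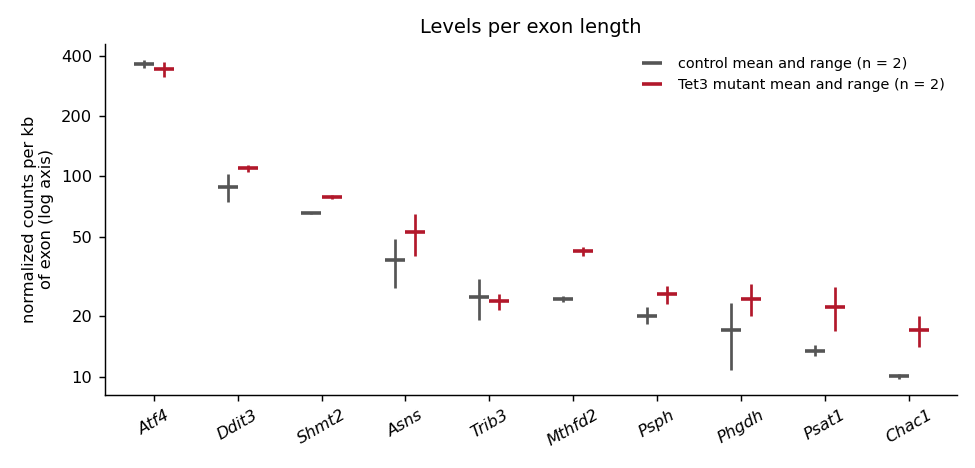
Normalized counts per kb of exon (log axis) for the 10 genes in the order of their control means, where horizontal ticks are group means and vertical lines join the 2 libraries of a group. *Atf4* lies near 365 in controls and *Chac1* near 10.1, and the step from control to mutant is clearest for *Mthfd2*.

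Other genes of the same pathways lay on both sides of 0. Over 7 lists of 122 genes, 118 were tested, 66 of them were above 0 (49% of all genes were), and the median log2 fold change was 0.028. Both mutants were above both controls in 28 and below them in 27, orders that 19.6% and 19.5% of all genes had. The counts of single lists further on are to be read beside these shares of all genes. By limma no listed gene had an adjusted p under 0.05, and at an unadjusted p under 0.05 there were 0 higher and 3 lower genes, *Aldh1l1*, *Slc1a5* and *Ern1*. The lists were drawn up with earlier results of these data known.

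Other genes of serine and one-carbon metabolism had a median log2 fold change of 0.0018 over 33 tested genes, a value whose sign turned with the minimum mean. Of these, 5 had both mutants above both controls and 9 had them below. The cytosolic counterparts of *Shmt2* and *Mthfd2* had negative values. *Shmt1* was at 63 and 147 normalized counts in the control libraries, against 34 and 77 in the mutant ones, a log2 fold change of -0.90 (SE 0.58, limma adjusted p = 0.71), with overlapping groups, and -0.29 without control 2. *Mthfd1*, the trifunctional cytosolic folate enzyme, measured 751 and 1433 there, against 608 and 741 in mutant libraries, a log2 fold change of -0.63 (SE 0.32, limma adjusted p = 0.684). Both mutants were below both controls, and the value was -0.16 without control 2.

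*Aldh1l1*, which takes one-carbon units out of the cytosolic folate pool, was at 320 and 682 normalized counts in the control libraries, against 171 and 196 in the mutant ones, a log2 fold change of -1.35 (SE 0.37, limma unadjusted p = 0.0147, adjusted p = 0.681). Its mutants were far below both controls, and it stayed at -0.80 without control 2. *Mat2a*, which makes S-adenosylmethionine, and *Ahcy*, which clears the product of its use, had log2 fold changes of -0.31 and -0.69 (limma adjusted p = 0.681 for each). *Mthfd2l* and *Mthfd1l*, the mitochondrial relatives of *Mthfd2*, overlapped between groups, at 0.16 and -0.021 (limma adjusted p = 0.865 and 0.991), the latter 0.027 with equal library totals and -0.43 without control 2. Thus 2 of the 6 mitochondrial genes in the plot of folate enzymes, *Mthfd2* and *Shmt2*, had both mutants above both controls, and 2 of the 3 cytosolic ones plotted, *Mthfd1* and *Aldh1l1*, had them below, a grouping by compartment that was made after the values were seen.

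**Figure D4:**
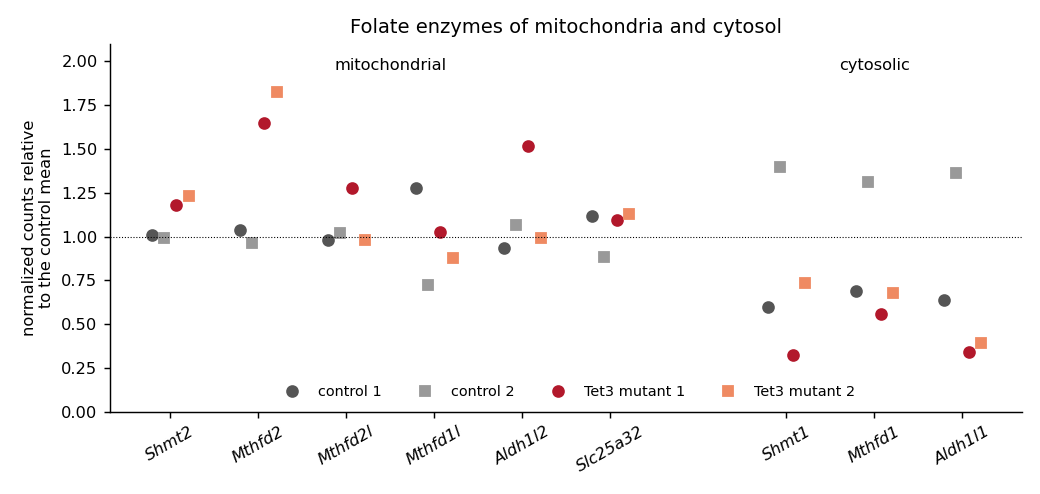
Normalized counts of folate enzymes in each library, divided by the gene's control mean (dotted line at 1), with the mitochondrial genes on the left and the cytosolic genes on the right. Both mutants lie above both controls for *Shmt2* and *Mthfd2* and below both for *Mthfd1* and *Aldh1l1*, while control 2 is the highest library for all 3 cytosolic genes.

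Alveolar type 2 markers moved with these cytosolic genes: all 6 were lower in mutants and highest in control 2, with sums of 10641 and 16172 in the control libraries, against 7500 and 9650 in the mutant ones, and none was at 0. Their part in the values of *Aldh1l1*, *Mthfd1* and *Shmt1* was not tested. Other marker lists went both ways. All 3 erythroid markers had log2 fold changes below 0, but their groups overlapped and only control 1 was high (233 and 3 in controls, 15 and 20 in mutants). Of the alveolar type 1 markers 3 of 5 were lower (1790 and 2831, then 1430 and 1940). Of the mesothelial ones 2 of 3 were lower, and their sum was high in control 1 only (183 and 50, then 52 and 69). Most of the remaining lists were higher in the mutant mean, as most of the 10 genes were. All 8 smooth muscle markers were higher, as were all 5 pericyte markers (4254 and 4383 in controls, 6179 and 5298 in mutants), all 6 neutrophil markers (1059 and 816, then 1939 and 1304) and all 5 ciliated cell markers (1555 and 1641, then 3283 and 2172), and 7 of 8 macrophage markers (8013 and 6923, then 9175 and 8995). The same held for all 8 T cell markers (790 and 228, then 846 and 877), all 5 cardiomyocyte markers (423 and 295, then 621 and 520) and all 6 endothelial markers. The 6 cell cycle genes summed to 1357 and 1186 in the control libraries, against 1394 and 1772 in the mutant ones, with 5 of 6 highest in mutant 2, the library in which all 6 enzyme genes peaked. The part of these cells or of cycling in the values of the 10 genes was not tested. No marker of these lists was at 0 in every library.

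ATF4 targets outside the 10 genes were mixed as well. The 15 genes of amino acid transport and synthesis had their median at -0.016 on the log2 scale (0.033 with equal library totals), and both mutants were above both controls in 3 and below them in 5. *Aldh18a1*, of proline synthesis, was at 285 and 161 normalized counts in the control libraries, against 341 and 327 in the mutant ones, a log2 fold change of 0.64 (SE 0.29, limma adjusted p = 0.681), which was 0.23 without control 2. The glutamine transporter *Slc1a5* measured 990 and 903 there, against 754 and 740 in mutant libraries, at -0.34 (SE 0.11, limma adjusted p = 0.681). The glycine transporter *Slc6a9* and *Cth*, of cysteine synthesis, had values of -0.59 and -0.80 (limma adjusted p = 0.698 and 0.681), which were -0.071 and -0.32 without control 2, the highest library for both.

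In the tRNA synthetase list nearly all genes had small positive values. It holds 13 genes including the tRNA exporter *Xpot*, 12 of them were above 0 (49% of all genes were), and 9 had both mutants above both controls (19.6% of all genes did). The median was 0.15, and it is not ranked against the 10 genes, which were chosen on this contrast. *Yars*, for tyrosine, was at 437 and 360 normalized counts in the control libraries, against 523 and 485 in the mutant ones, at a log2 fold change of 0.34 (SE 0.15), or 0.20 without control 2. *Nars* and *Gars*, for asparagine and glycine, had 0.21 and 0.18, *Xpot* had -0.21 (-0.11 without control 2), and no adjusted p in limma was under 0.681 for these 4.

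Of 14 further stress regulators, 4 had log2 fold changes above 0, 1 had both mutants above both controls and 5 had them below. None had a limma p under 0.05 before adjustment, and the median of -0.12 was -0.068 with equal library totals. *Atf3*, an early stress factor, was at 276 and 331 normalized counts in the control libraries, against 256 and 169 in the mutant ones, at -0.54 (SE 0.25). *Ddit4* and *Sesn2*, both inhibitors of mTORC1 signalling, had -0.59 and -0.55, or -0.26 and -0.17 without control 2. Only *Atf5* was higher among the named genes of this list, at 0.20 (limma adjusted p = 0.681 to 0.689 for these 4). All 12 genes known to react to tissue dissociation had log2 fold changes below 0, with a median of -0.32 and *Hspa1a* the nearest to 0 at -0.0056. They summed to 11588 and 15390 in the control libraries, against 12219 and 8612 in the mutant ones, lowest in mutant 2, as *Atf4* and *Atf3* were. Control 2 was the highest library for 10 of these 12 genes, and the mutant 1 sum was above that of control 1. Both mutants were below both controls in 3 of the 12, an order that 19.5% of all genes had. The part of dissociation in these values was not tested. Of the relatives of *Trib3* and *Chac1*, *Trib1* had -0.16, *Trib2* 0.17 and *Chac2* -0.074, with overlapping groups for each (limma adjusted p = 0.801, 0.791 and 0.946). Without control 2 they were at 0.038, -0.034 and -0.023.

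Most genes upstream of ATF4 had log2 fold changes near 0. The kinase genes *Eif2ak1*, *Eif2ak2* and *Eif2ak3*, which encode HRI, PKR and PERK, had log2 fold changes of -0.0098, -0.016 and -0.002 (limma adjusted p = 0.986, 0.985 and 0.997), values that turned to 0.039, 0.033 and 0.046 with equal library totals. Without control 2, *Eif2ak2* was at -0.19 and *Eif2ak3* at 0.037. *Eif2ak4*, which encodes the amino acid sensor GCN2, was at 621 and 913 normalized counts in the control libraries, against 536 in both mutant ones, at -0.49 (SE 0.20, limma adjusted p = 0.681), or -0.21 without control 2. The list of kinases, eIF2 and eIF2B had a median of -0.016 over 13 genes, which was 0.033 with equal library totals. That scaling moved the median of all genes to 0.042. These are messenger levels, and phosphorylation of eIF2 was not measured in these libraries.

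In the ATF6 and XBP1 branches of the unfolded protein response, 16 of 21 genes had log2 fold changes above 0, 7 had both mutants above both controls and 3 had them below. The median was 0.067, with *Sdf2l1*, an endoplasmic reticulum cochaperone, at 0.54 and the sensor *Ern1* at -0.35 (limma adjusted p = 0.681 for each). Mitochondrial chaperones and proteases had a median of 0.024 over 9 genes, 6 of them above 0, with 2 genes apart in each direction. In this list the chaperonin *Hspd1* was at 0.22 and the stress-activated protease *Oma1* at -0.54 (limma adjusted p = 0.701 and 0.684), or at 0.33 and -0.17 without control 2.

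**Figure D5:**
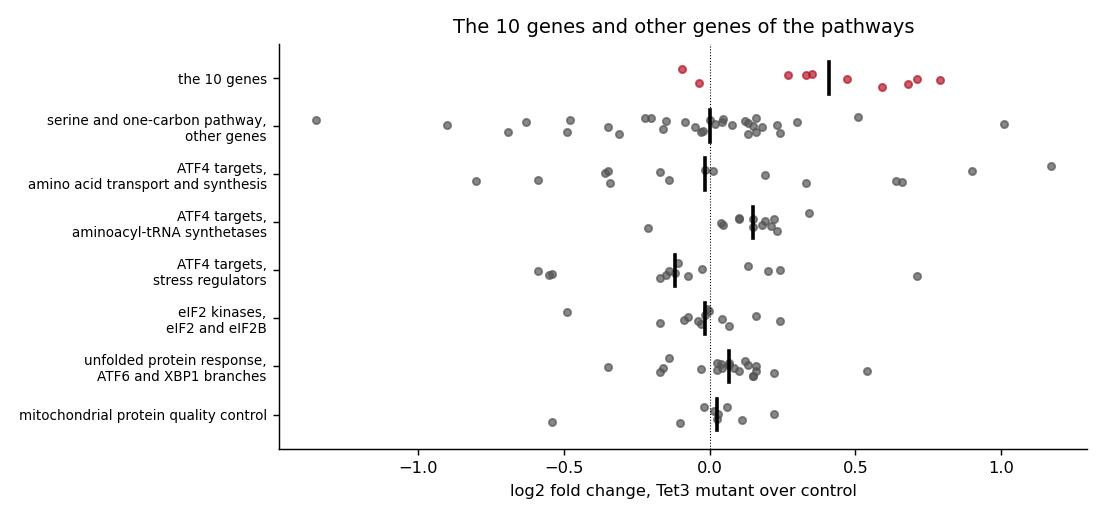
Log2 fold changes, *Tet3* mutant over control, of the 10 genes (red) and of the tested genes of 7 other pathway lists (grey), 1 point per gene, with a black bar at the median of each row. The median is 0.41 for the 10 genes, 0.15 for the tRNA synthetases and between -0.12 and 0.067 for the other lists. The 10 genes were chosen on this contrast, so their row is not ranked against the others.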

How the data were processed

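RNA from sorted lung smooth muscle cells (2 libraries per genotype) was depleted of ribosomal RNA and sequenced from stranded single-end libraries. Per the labels, the authors used FastQC, Trimmomatic 0.36, STAR 2.6.0c and featureCounts of Subread 1.6.0 with mm10 (GRCm38). Reads fitting several genes or places were left out, and strand use is not given in the sources used here. The deposited values are counts the authors normalized with DESeq2 size factors and rounded to whole numbers, handled here as a score rather than as counts: value 6, for example, is held by 461 genes in control 1 and 0 in mutant 1. Totals of 6805272 to 7164573 therefore only approximate read depth.

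Log2(value + 1) was fitted with limma 3.58.1 (lmFit, eBayes with trend; R 4.3.3) on genes with a mean of at least 10 in the 4 libraries, and p-values were Benjamini-Hochberg adjusted over all 16659, with a threshold of 0.05. Scripts were tested on simulated data. An exact permutation of 2 against 2 cannot go below p = 0.333. The members and lists were chosen with earlier results of these data known. Named genes are the 10 members, *Tet3*, paralogs or partners of members, the eIF2 kinases and, per pathway list, the 4 genes of smallest limma p with a mean of at least 50. The genes between *Mthfd2* and *Tet3*, *Actg2* as a gene near *Tet3*, those sharing exons with members, *Aldh1l2* and *Slc25a32* were added after values were seen. Coordinates and exon lengths are from GENCODE M21. Alternatives were other pseudocounts (0.5, 8), minimum means (1, 50), TMM factors, equal library totals, no mean-variance trend, a replicate block and each library left out. *Fgf21*, *Dmgdh* and *Adm2* were not analysed here, and the values of 1 gene that the rule names are not reported here.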

Additional observations from a re-analysis of the deposited data

How the results depend on the processing

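The number of genes called by limma was 0 in all settings except without the mean-variance trend, where it was 1. Genes at an unadjusted p under 0.05 numbered 1112, from 876 to 1637 under the other settings on all libraries, and from 273 (without mutant 1) to 3366 (without control 1) with a library left out, 414 without mutant 2. With equal library totals the median of all genes moved to 0.042 and the share of higher genes among those at p under 0.05 from 57.4% to 69.2%; with the replicate block, whose pairing rests on shared numbers only (correlation of deviations 0.13), it was 42.8% of 1637, no call changed, and *Tet3* stayed at -0.34.

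With a library left out, the median log2 fold change of the 10 genes ranged from 0.27 to 0.52. The list medians ranged from -0.024 to 0.029 (serine and one-carbon), -0.11 to 0.048 (amino acid transport), 0.09 to 0.20 (tRNA synthetases), -0.12 to -0.065 (stress regulators), 0.027 to 0.14 (unfolded protein response) and -0.033 to 0.047 (mitochondrial quality control). The serine and one-carbon median was -0.0094 at a minimum mean of 50, 0.016 with TMM and 0.05 with equal totals, which also gave 0.033 for amino acid transport (-0.14 at a minimum mean of 50), -0.068 for stress regulators and 0.033 for the eIF2 list.

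Signs turned for *Trib3* (0.01 with equal totals, -0.36 to 0.29 with a library left out), *Atf4* (-0.21 to 0.025), *Eif2ak1* (0.0044 with TMM, 0.039 with equal totals), *Eif2ak2* (0.033 with equal totals, -0.19 to 0.16), *Eif2ak3* (0.012 and 0.046, -0.041 to 0.037), *Mthfd1l* (0.027, -0.43 to 0.39), *Mthfd2l* (-0.028 to 0.35), *Trib1* (-0.36 to 0.038) and *Trib2* (-0.034 to 0.38). The cause was not tested. Rounding and 2 libraries per group limit the low genes most.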
